A study of Glycine max with 12 samples.

Results

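SFERH-2 is a ferritin subunit gene of soybean (Glycine max), and its transcript level was followed in leaves under water deficit, heat, and both together. The gene was chosen by its own measured fall in heat stress against control in these same libraries, so that fall is described here and is not a test result. Every other row whose identifier starts with SFERH was added by name, which gave SFERH-3 and SFERH-4, so that 3 of the 55051 genes in the table carry the prefix. H-1, which RefSeq also lists as FERRITIN and SFerH-1, and FER2-1 were added as 2 further ferritin-named rows, also by name. FER2-1 is described by its symbol alone, because the name table states no function for it. All 5 genes passed the filter on low values, a mean of at least 10 normalized counts over the 12 libraries.

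RNA was sequenced from leaves of wild type plants of the cultivar Magellan raised in growth chambers. The 12 libraries fell into 4 groups of 3: untreated controls, water deficit, heat stress, and combined stress, in which plants met water deficit and heat at the same time. The labels give no age, no temperature, no length of treatment and no hour of harvest. They also do not say whether the libraries of a group came from separate plants, so the p-values measure the spread between these libraries, which may be technical. Libraries are numbered 1 to 3 within a group, and the numbers pair nothing across groups.

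Ferritin is a hollow protein shell built of many subunits that takes up ferrous iron, oxidises it and stores it as a mineral core. In plants the subunits are encoded in the nucleus and carried into plastids, where much of a leaf cell's iron is used by the photosynthetic apparatus. By holding iron in a form that does not react with hydrogen peroxide, ferritin limits the formation of hydroxyl radicals. Plant ferritin genes are known to be regulated mainly at the level of transcription, with transcripts that rise under iron excess and oxidative treatment. The subunits encoded by H-1 and SFERH-2 were described as the protein subunits of ferritin in soybean seed.

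Depth was 26077068 to 46186226 reads per library. The 6 leaf marker genes, small Rubisco subunits, Rubisco activases and light-harvesting proteins, were expressed in every group, with summed normalized counts of 426708 to 838924 in control and 199861 to 339102 in combined stress. None of the 6 was at 0 in all libraries. Leghaemoglobin genes, which mark nodules, summed to at most 0.893 normalized counts in any library, with 3 of 4 rows at 0 in all, and the 7 seed storage and oil body genes summed to at most 2.79, with 6 of 7 at 0 in all. The root marker list held 1 row, the iron-regulated transporter IRT, at 30.4 to 85.1 normalized counts. In bulk leaf tissue, fewer cells that express a gene and less RNA per cell cannot be told apart.

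The libraries of the heated groups stood apart from each other in the level of LCL3, a morning gene of the circadian clock of the LHY and CCA1 family. LCL3 was at 204.3, 153.3 and 2013 normalized counts in heat stress libraries 1 to 3 and at 308.1, 1863 and 2112 in combined stress libraries 1 to 3. In the unheated groups it was at 331.6 to 787.5. Heat stress library 3 and combined stress libraries 2 and 3 were therefore high in LCL3, and results that rest on them are given with and without these 3 libraries, an alternative chosen after seeing the data.

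SFERH-2 was highest in control leaves, lower under water deficit, and lowest under heat. Its normalized counts in control were 8749, 6834 and 2207 (mean 5930 ± 3363, SD, n = 3). Under water deficit they were 2202, 3012 and 916.4 (2044 ± 1057, SD, n = 3). Control library 3 lay just above water deficit library 1 and below water deficit library 2, so these groups overlapped.

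Under heat stress SFERH-2 was at 117.3, 67.8 and 801.0 normalized counts (328.7 ± 409.8, SD, n = 3), and under combined stress at 1526, 118.5 and 455.5 (700.1 ± 735.2, SD, n = 3). Every heated library was below every control library. The highest heat stress library was also below the lowest water deficit library, while combined stress library 1 lay among the water deficit libraries. By mean log2 level the order was control, water deficit, combined stress, heat stress, and the libraries of neighbouring groups in that order overlapped at each step.

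**Figure D1:**
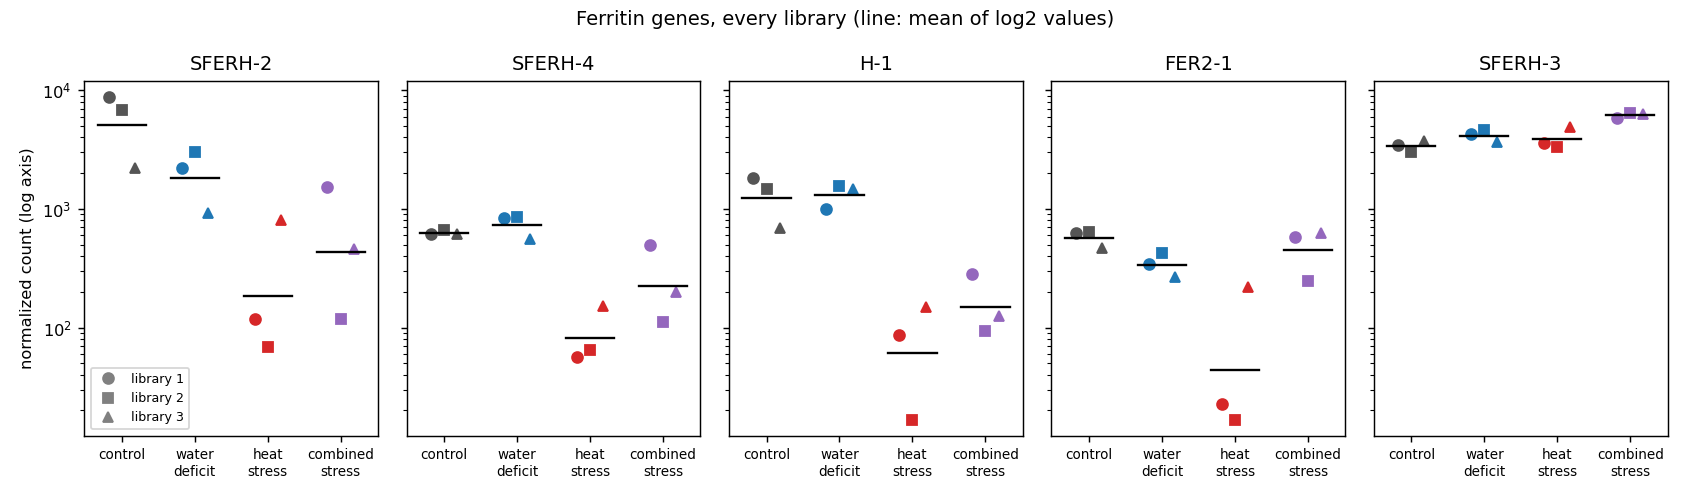
Normalized counts (log axis) of SFERH-2, SFERH-4, H-1, FER2-1 and SFERH-3 in each of the 12 libraries, with 1 point per library, the group on the horizontal axis and a line at the mean of the log2 values. SFERH-2 spans 67.8 to 8749 normalized counts, while SFERH-3 stays between 3017 and 6455.

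The place of SFERH-2 among all 55051 genes moved accordingly. Ranked by normalized count from the highest down, it was gene 422 in control library 1 and gene 580 in control library 2. It was gene 2826 in control library 3, and 1705 to 7925 under water deficit. In heat stress libraries 1 and 2 it was gene 24014 and gene 26385, and in library 3 gene 9018. In combined stress it ranked 4382, 23769 and 14144 in libraries 1 to 3. Heat stress libraries 1 and 2 and combined stress library 2 held it far down the table, and control libraries 1 and 2 near its top.

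The mean log2 level of SFERH-2 was lower than in control by 27.2-fold in heat stress, a log2 difference of -4.77, with no overlap of libraries. It was lower than in control by 11.7-fold in combined stress, a log2 difference of -3.54, again with no overlap. Under water deficit it was lower by 2.79-fold, a log2 difference of -1.48, with overlapping libraries. Combined stress stood above heat stress by 1.22 on the log2 scale, with overlap. These 4 values carry no test, because the gene was chosen by values of the control and heat stress libraries. All changes are on the log2(normalized count + 1) scale, which slightly understates changes of low genes.

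Single heated libraries can be set beside the unheated group of the same water supply. Heat stress libraries 1 to 3 were at 0.0198, 0.0114 and 0.135 times the control mean. Combined stress libraries 1 to 3 were at 0.747, 0.0580 and 0.223 times the water deficit mean. The difference of these heat responses, heat with water deficit minus heat without it, was 2.70 (SE 1.41) on the log2 scale and was not tested for SFERH-2.

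The comparison of combined stress with water deficit takes its difference from neither control nor heat stress libraries, and is the only test made of SFERH-2. The SE, p and interval of the fit over all 4 groups do use the spread within the control and heat stress libraries, whose levels chose the gene. The log2 change was -2.06 (SE 0.999), a 4.18-fold lower level, with a 95% interval of -4.24 to 0.11. It did not pass limma's test across all genes (adjusted p = 0.189), and the exact two-sided permutation test of 3 against 3 libraries gave p = 0.2, where 0.1 is the smallest it can give. With only the 6 libraries compared, limma's SE was 0.88 (adjusted p = 0.168). The interval reaches from a 0.0528-fold to a 1.08-fold level, so these libraries neither show a fall in this comparison nor show that the levels are alike. Without the 3 heated libraries high in LCL3 the log2 change was -0.26 (adjusted p = 0.860), with only combined stress library 1 left in its group. That library is then assumed to vary like those of the other groups, here and in every result without the 3. Leaving out combined stress library 2 gave -1.13, and leaving out combined stress library 1 gave -2.97.

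The spread of SFERH-2 between libraries of a group was wide in every group. Its SD on the log2 scale was 1.06 over the control libraries, 0.89 over the water deficit ones, 1.86 over the heated ones and 1.84 under combined stress. The median gene tested had an SD of 0.25, 0.27, 0.37 and 0.35 in the same groups. The SD of SFERH-2 exceeded that of 97.1%, 93.3%, 96.9% and 98.5% of the genes tested. Its highest library exceeded its lowest by 3.96-fold in control and 3.29-fold in water deficit, and by 11.8-fold in heat stress and 12.9-fold in combined stress.

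Within the heated groups the level of SFERH-2 did not keep a fixed relation to LCL3. In heat stress the library high in LCL3 had the highest SFERH-2 level, 801.0 against 117.3 and 67.8 normalized counts. In combined stress both libraries high in LCL3 had the lowest SFERH-2 levels, 118.5 and 455.5 against 1526. Without the 3 libraries the log2 difference from control was -5.82 in heat stress and -1.74 in combined stress, and combined stress stood 4.08 above heat stress. The part of whatever LCL3 marks in these differences was not tested.

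**Figure D2:**
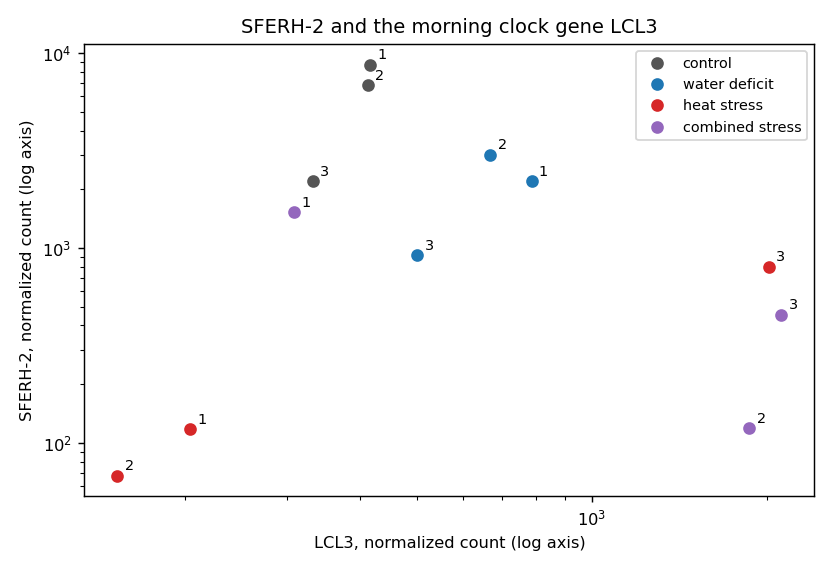
Normalized count of SFERH-2 (vertical, log axis) against that of the clock gene LCL3 (horizontal, log axis), with 1 point per library, coloured by group and marked with its library number. Heat stress library 3 and combined stress libraries 2 and 3 lie at LCL3 levels of 1863 to 2112, with SFERH-2 at 118.5 to 801.0.

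SFERH-4, another ferritin subunit gene, was at 615.0, 659.8 and 610.8 normalized counts in control and at 833.3, 851.3 and 559.3 under water deficit. It was at 56.7, 64.1 and 151.8 in heat stress and at 498.9, 111.8 and 198.5 in combined stress. All heated libraries were below all unheated ones, and combined stress library 1 was the closest to them.

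In heat stress against control, SFERH-4 fell by 2.92 on the log2 scale (SE 0.48), or 7.57-fold (limma adjusted p = 0.0117). H-1, the gene of the other classical seed ferritin subunit, fell by 4.32 (SE 0.68), to 0.0501 times its control level (limma adjusted p = 0.00963). FER2-1 fell by 3.67 (SE 0.74), or 12.7-fold (limma adjusted p = 0.0254). SFERH-3 had a log2 change of 0.21 (limma adjusted p = 0.566, SE 0.19), with a 95% interval of -0.20 to 0.62. In this comparison 3 of the 4 ferritin-named genes tested were called, at an adjusted p under 0.05, where 3.11% of all genes tested were. The call of SFERH-4 was lost when any single control library, or heat stress library 1 or 2, was left out (log2 change -2.94 to -2.66). FER2-1 lost its call with edgeR's test on whole reads (-2.72, adjusted p = 0.0753), with only the libraries compared (adjusted p = 0.0903), and on leaving out any of 5 of the 12 libraries. H-1 lost its call with only the libraries compared (adjusted p = 0.0521) and without control library 1 or 2 (adjusted p = 0.0508 and 0.0535). Heat stress library 2 gave the lowest H-1 level of any library, and FER2-1 was also lowest there.

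The levels behind those changes were as follows for H-1. It was at 1824, 1458 and 694.5 normalized counts in control and at 998.4, 1570 and 1460 under water deficit. In heat stress it was at 85.7, 16.7 and 150.0, and in combined stress at 280.8, 92.8 and 124.9. The highest heated library was below the lowest unheated library in every pairing of groups.

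FER2-1 overlapped its control range in combined stress, where the 95% interval of its log2 change from control was -1.97 to 1.26. It was at 630.0, 633.1 and 470.7 normalized counts in control and at 340.6, 422.9 and 264.1 under water deficit. In heat stress it was at 22.7, 16.7 and 218.8, with library 3 close below the lowest water deficit library. In combined stress it was at 577.4, 245.2 and 629.2, so that 2 of 3 libraries lay within the control range.

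SFERH-3 varied least of the 5 genes over the 12 libraries, between 3017 and 6455 normalized counts. It was at 3441, 3017 and 3719 normalized counts in control, 4258, 4584 and 3677 under water deficit, and 3605, 3353 and 4922 in heat stress. In combined stress it was at 5819, 6455 and 6329, above every library of the other 3 groups. Its SD on the log2 scale was 0.08 to 0.29, smaller than that of SFERH-2 in each group.

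In combined stress against control, SFERH-3 rose by 0.87 on the log2 scale (SE 0.19), or 1.83-fold (limma adjusted p = 0.0111). H-1 fell by 3.04 (SE 0.68), or 8.23-fold (limma adjusted p = 0.0131). SFERH-4 had a log2 change of -1.49 (SE 0.48) that was not called (limma adjusted p = 0.0602). Its libraries did not overlap (exact two-sided permutation test p = 0.1, the smallest it can give), and the share of all genes without overlap is not given here. FER2-1 had a log2 change of -0.36 (limma adjusted p = 0.783, SE 0.74), with overlap. The 2 genes called of 4 stand beside 13.8% of all genes tested. The rise of SFERH-3 missed the threshold without the 3 libraries high in LCL3 (0.78, adjusted p = 0.0501) and without control library 2 (0.79, adjusted p = 0.0512), and the fall of H-1 did so without the 3 libraries (-2.12, adjusted p = 0.107), without control library 1 (adjusted p = 0.0569) and without combined stress library 3 (adjusted p = 0.0516).

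In combined stress against water deficit, the comparison open to all 5 genes, 2 of 5 were called where 12.7% of all genes tested were. H-1 fell by 3.14 on the log2 scale (SE 0.68), or 8.83-fold (limma adjusted p = 0.0133). SFERH-4 fell by 1.72 (SE 0.48), or 3.28-fold (limma adjusted p = 0.0377). SFERH-3 had a log2 change of 0.58 (SE 0.19) that was not called (limma adjusted p = 0.0636). Its libraries did not overlap (exact two-sided permutation test p = 0.1, the smallest it can give), and the share of all genes without overlap is not given here. FER2-1 had one of 0.41 (limma adjusted p = 0.755, SE 0.74). Without the 3 libraries high in LCL3 the change of H-1 was -2.23 (adjusted p = 0.0984) and that of SFERH-4 was -0.56 (adjusted p = 0.215), so that neither was called with the single combined stress library that remained. H-1 was also not called without combined stress library 3 (adjusted p = 0.0582). SFERH-4 was not called in 8 of the 12 fits with a library left out (adjusted p up to 0.127), nor by edgeR, without the variance trend or with only the libraries compared.

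Between combined stress and heat stress alone, FER2-1 was higher in combined stress by 3.31 on the log2 scale (SE 0.74), or 9.91-fold (limma adjusted p = 0.0276). It was the only 1 of the 4 tested genes called, where 5.21% of all genes were. It lost the call with edgeR's test on whole reads (2.49, adjusted p = 0.0829), with only the libraries compared (adjusted p = 0.169), and without heat stress library 1 or 2 or combined stress library 1 or 3 (adjusted p 0.0623 to 0.125). The log2 changes of SFERH-4 (1.43, SE 0.48), H-1 (1.28, SE 0.68) and SFERH-3 (0.67, SE 0.19) were positive and not called (limma adjusted p = 0.110, 0.301 and 0.0632). For SFERH-4 and H-1 the libraries of the groups overlapped. Of the 4 tested genes, 3 had an unadjusted p under 0.05, beside 7163 of the 33119 genes tested. DESeq2 called 3 of the 4, beside 3834 of all genes.

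Under water deficit alone limma called none of the 4 tested ferritin genes (0 of 4 called, 0 at an unadjusted p under 0.05, 0 by edgeR and 0 by DESeq2), where 1.28% of all genes were called. The log2 changes were 0.30 (SE 0.19) for SFERH-3, 0.23 (SE 0.48) for SFERH-4, 0.10 (SE 0.68) for H-1 and -0.77 (SE 0.74) for FER2-1. Their 95% intervals leave room for changes in either direction, up to a 2.98-fold rise for H-1 and down to a 0.192-fold level for FER2-1. These p-values, SEs and intervals use the spread within all 4 groups, heated ones included. For FER2-1 the log2 SD was 0.24 in control, 0.34 in water deficit and 1.99 in heat stress. With only the libraries compared, limma still called none of the 4, where it called 1318 of all genes. The control and water deficit libraries of FER2-1 did not overlap (exact two-sided permutation test p = 0.1, the smallest it can give), and those of the other genes did. The share of all genes without overlap is not given here.

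The interaction asks whether the heat response differed with water deficit, as combined stress minus water deficit minus heat stress plus control. None of the 4 genes was called by limma, edgeR or DESeq2, with 1 of 4 at an unadjusted p under 0.05. Of all genes 0.0% were called by limma, with 3132 at an unadjusted p under 0.05, 0 called by edgeR and 261 by DESeq2. The value was 4.07 (SE 1.05) for FER2-1, 1.20 (SE 0.68) for SFERH-4, 1.18 (SE 0.96) for H-1 and 0.37 (SE 0.27) for SFERH-3 (limma adjusted p = 0.393, 0.603, 0.736 and 0.694). Without heat stress library 3 the value of FER2-1 was 5.22 (limma adjusted p = 0.00316), in a fit where 1583 of all genes were called. Without the 3 libraries high in LCL3 the value of FER2-1 was 5.58 and that of SFERH-4 was 2.80, with combined stress represented by library 1 alone.

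**Figure D3:**
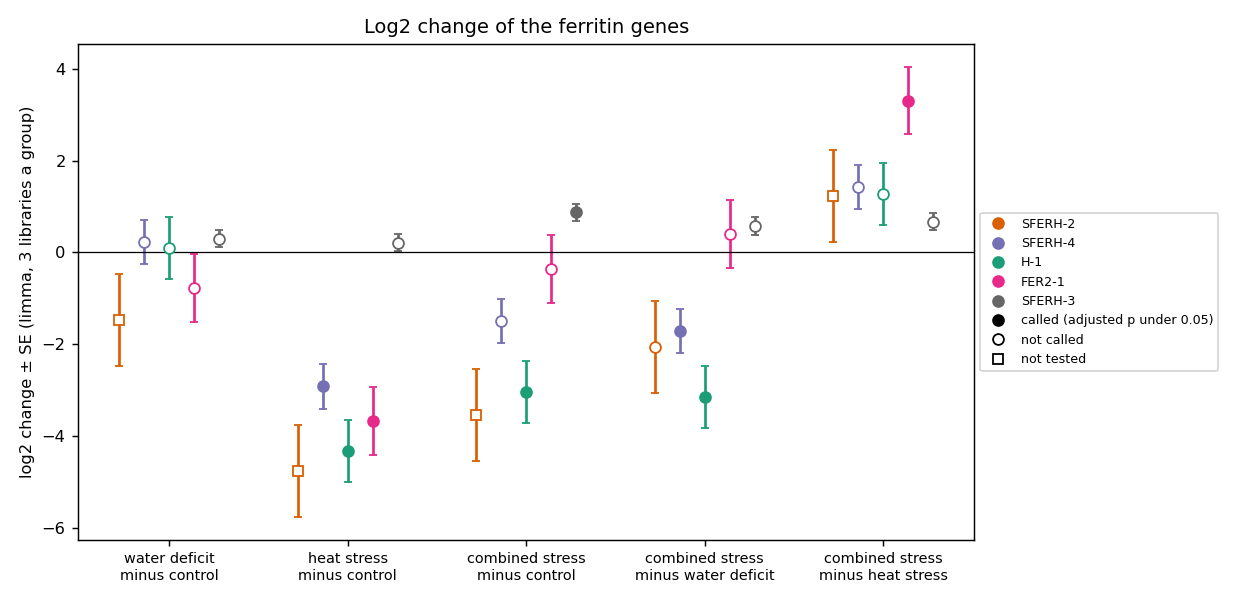
Log2 change (vertical) with its SE from limma for the 5 ferritin-named genes in 5 comparisons (horizontal). Filled circles passed an adjusted p under 0.05, open circles did not, and open squares mark values of SFERH-2 that were not tested. In heat stress minus control SFERH-4, H-1 and FER2-1 are filled at -2.92, -4.32 and -3.67, and SFERH-3 is open at 0.21.

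The ferritin reads can also be summed over the 4 genes whose names or synonyms are those of soybean ferritin subunits. FER2-1 is not among them, because no function is stated for it, and genes known only by an identifier are not either, so the sums and shares hold for these 4 genes and not for all ferritin transcripts. The normalized counts of SFERH-2, SFERH-3, SFERH-4 and H-1 summed to 11276 ± 3747 (SD, n = 3) in control and 8307 ± 1702 (SD, n = 3) under water deficit. The sum was 4464 ± 1364 (SD, n = 3) in heat stress and 7337 ± 702 (SD, n = 3) in combined stress. The heat stress libraries, at 3502 to 6025, were all below the control libraries, at 7232 to 14628, in a sum that includes the gene chosen for its fall there. Without SFERH-2 the sums of the other 3 genes were 3434 to 5224 in heat stress and 5025 to 5879 in control, which overlapped. The combined stress sums, 6778 to 8126, overlapped those of control. Without SFERH-2 the combined stress sums were 6599 to 6659, above every control library and within the range of water deficit, 5696 to 7005.

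SFERH-2 supplied 49.1% of the reads of these 4 genes in control (30.5% to 59.8% in single libraries) and 23.5% under water deficit (13.9% to 30.1%). It supplied 6.09% in heat stress (1.94% to 13.3%) and 8.98% in combined stress (1.75% to 18.8%). SFERH-3 supplied 33.4% in control (23.5% to 51.4%), 50.9% under water deficit (45.8% to 55.6%), 90.2% in heat stress (81.7% to 95.8%) and 85.3% in combined stress (71.6% to 95.2%). The share of SFERH-3 depends on the level of SFERH-2 in the same total, so it too is a description. Of the reads of SFERH-3, SFERH-4 and H-1 alone, SFERH-3 supplied 58.5% to 74.0% in the single control libraries and 64.6% to 69.9% in those of water deficit. In heat stress it supplied 94.2% to 97.6% and in combined stress 88.2% to 96.9%, with no overlap between heated and unheated libraries. The widest 95% Wilson interval of a single share reached 1.18 percentage points to either side, which covers counting error only. The shares are not corrected for transcript length, so they can be read across groups for a gene but not between genes. The share of SFERH-2 rests in part on the heat response that chose it and is a description.

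**Figure D4:**
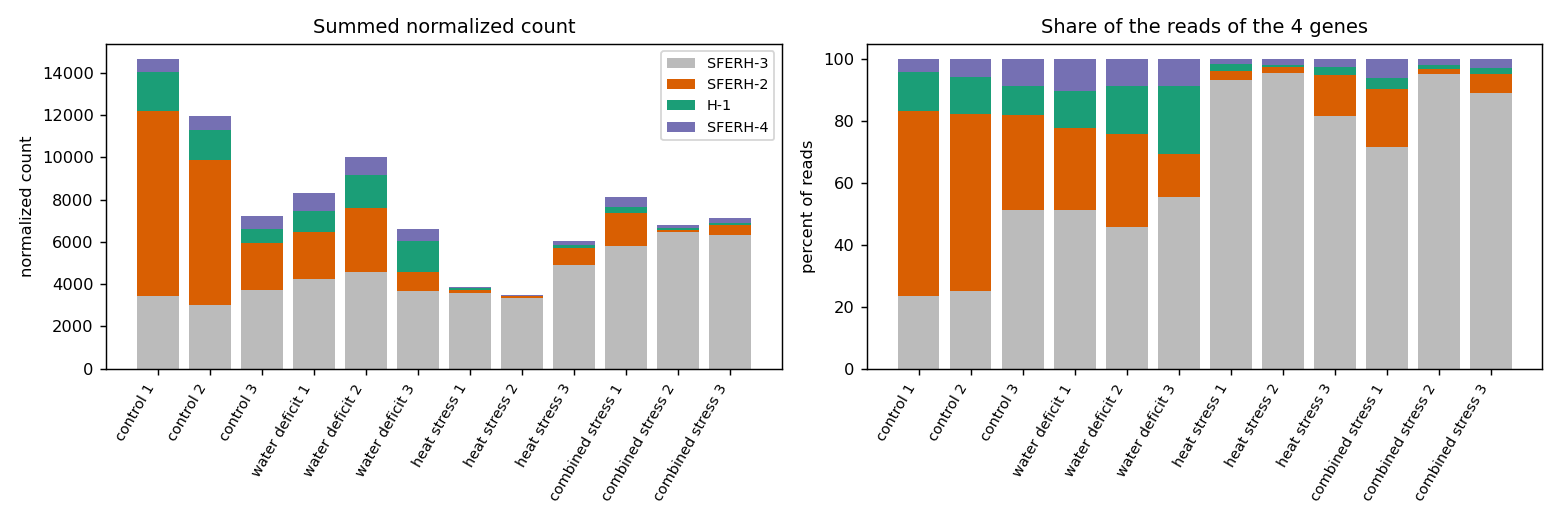
Summed normalized counts (left) and shares of reads in percent (right) of SFERH-3, SFERH-2, H-1 and SFERH-4 in each of the 12 libraries, as stacked bars. SFERH-3 makes up 71.6% to 95.8% of the reads in heated libraries and 23.5% to 55.6% in unheated ones.

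Reads from near-identical ferritin genes may have been divided among family members in a way that is not given in the sources used here, so values of single members are uncertain to that extent. The part of such a division in the differences between members was not tested. In log2 units relative to SFERH-3 in the same library, SFERH-2 was at 0.59 ± 1.17 (SD, n = 3) in control and -4.39 ± 1.57 (SD, n = 3) in heat stress. The corresponding values of SFERH-4 were -2.43 ± 0.21 and -5.55 ± 0.49 (SD, n = 3 each).

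The genes most like SFERH-2 were found by Pearson correlation of log2 values over the 12 libraries, among 25219 genes with a mean of at least 100. The libraries share their group and their size factor, so the coefficients are descriptions and carry no p. The median coefficient over all genes was 0.0046, and 11 genes reached 0.9 while 9 were at or below -0.9. The closest gene was LOC100778273, a protein-coding gene with no function stated in the name table, with r = 0.98 and Spearman's rho = 0.99. Without heat stress libraries 1 and 2, the libraries farthest from the median of SFERH-2, r was 0.97, and with the group means removed it was 0.96.

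LOC100778273 was at 19678, 17843 and 4707 normalized counts in control and at 5199, 5411 and 1820 under water deficit. It was at 350.6, 221.2 and 3014 in heat stress and at 3314, 749.0 and 1518 in combined stress. It was, like SFERH-2, lowest in library 3 of control and of water deficit, highest in library 3 of heat stress and lowest in library 2 of combined stress. The next genes were LOC100794445 (r = 0.94), LOC100802485 and LOC100814847 (both r = 0.92), and LOC100804253, LOC100794225, SFERH-4 and LOC100811364 (all r = 0.91).

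Among the ferritin-named genes, SFERH-4 was the gene of rank 7 and H-1 that of rank 10 (r = 0.90) in likeness to SFERH-2. FER2-1 had rank 301 (r = 0.79), and SFERH-3 had r = -0.27. Without heat stress libraries 1 and 2, r was 0.82 for SFERH-4, 0.83 for H-1, 0.59 for FER2-1 and -0.80 for SFERH-3. The coefficient of SFERH-3 was thus more strongly negative without these libraries, and those of the other genes were smaller. With the group means removed, r was 0.90 for SFERH-4, 0.80 for H-1, 0.84 for FER2-1 and 0.40 for SFERH-3. The most opposite genes were LOC100813040 (r = -0.94), LOC100776188 and LOC100817636 (both r = -0.92) and LOC100775279 (r = -0.91). LOC100813040 was at 377.6 to 391.6 normalized counts in control and at 540.3 to 846.1 in heat stress.

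**Figure D5:**
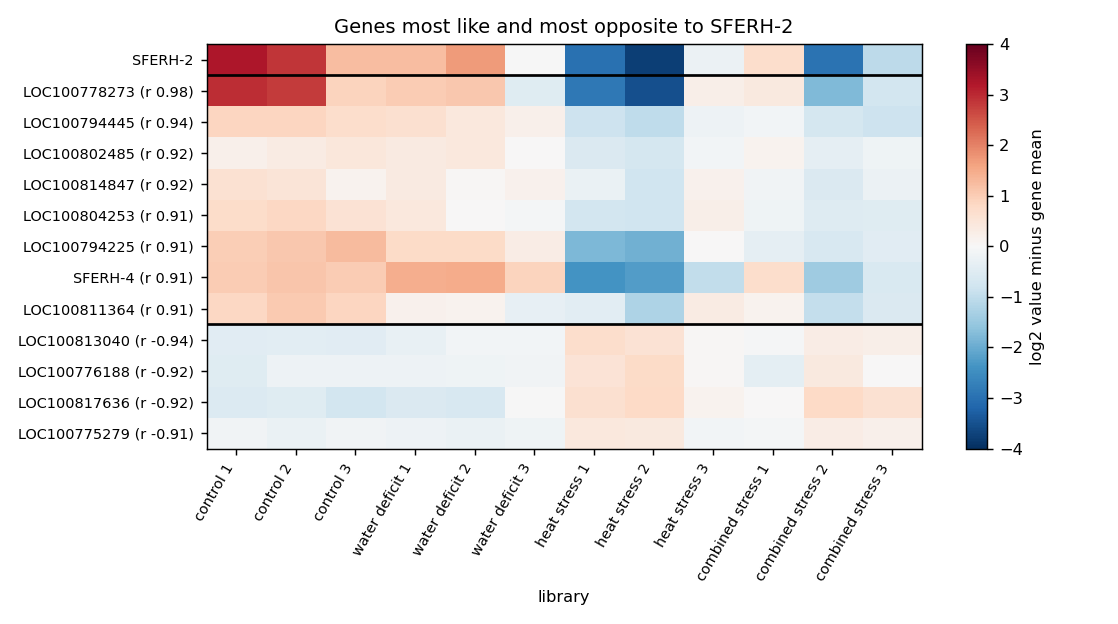
Log2 value minus the gene's own mean over 12 libraries (colour, from -4 to 4) for SFERH-2 and, below it, the 8 most similar and the 4 most opposite genes, with Pearson's r in brackets. LOC100778273 (r 0.98) follows SFERH-2 in nearly the same range of colour, and the other similar genes do so in a narrower range.

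The genes that lie beside SFERH-2 in the RefSeq order of the assembly Glycine_max_v4.0 gave the following values. LOC100500143, the next gene, had a log2 change of -0.41 in heat stress against control (limma adjusted p = 0.229) and fell by 0.93 in combined stress against water deficit (limma adjusted p = 0.00941). It also fell in combined stress against control, by 1.24 (limma adjusted p = 0.00157), and against heat stress, by 0.84 (limma adjusted p = 0.0245). LOC100801792, on the other side of a pseudogene, had log2 changes of 0.71 (limma adjusted p = 0.249) and 0.94 (limma adjusted p = 0.0843) in these comparisons. LOC100788199 had log2 changes of 0.44 (limma adjusted p = 0.773) and 0.11 (limma adjusted p = 0.937). It fell by 3.87 under water deficit (limma adjusted p = 0.0268) and by 3.75 in combined stress (limma adjusted p = 0.00595), each against control, and by 4.20 in combined stress against heat stress (limma adjusted p = 0.00918).

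Other genes of iron handling were taken from lists of symbols. Of 5 rows for iron transport and chelation 2 passed the filter on low values, and limma called none of the 2 in any of the 6 comparisons. In heat stress against control 1 of the 2 had an unadjusted p under 0.05, beside 6983 of the 33119 genes tested. That gene was DMT1, a divalent metal transporter of the NRAMP family, also called by DESeq2, beside 3314 of all genes. In combined stress against water deficit it was the other gene, IRT, with a log2 change of -0.90. There 9961 of all genes tested had an unadjusted p under 0.05, and DESeq2 called 7025, IRT among them. Neither gene was called by edgeR in these comparisons. DMT1 was at 175.2 to 466.5 normalized counts in control, and at 1308, 3271 and 282.2 in heat stress libraries 1 to 3. Its log2 change of 1.87 in heat stress was not called (limma adjusted p = 0.157, SE 0.70), and heat stress library 3 lay within the control range. Without that library the log2 change was 2.83 (limma adjusted p = 0.00575), and without heat stress library 2 it was 1.07 (limma adjusted p = 0.420). Of all genes, limma called 4742 without heat stress library 3 and 254 without library 2, against 1031 with every library. Of 12 GMNRAMP genes, metal transporters of the same family listed after the table was opened, 8 were tested. In combined stress against heat stress 3 of the 8 rose (5.21% of all genes called), a count of 1 with edgeR, of 0 with only the libraries compared, and of 1 to 4 with a library left out. Against control 1 of 8 rose in combined stress (13.8% of all genes called), 1 rose under water deficit (1.28%) and 1 fell in heat stress (3.11%). GMNRAMP2A was at 938.2 to 1033 normalized counts in control and 1948 to 2034 under water deficit, a rise of 1.03 on the log2 scale (limma adjusted p = 0.0402, SE 0.21), a call lost with edgeR, without the variance trend and in 7 of the 12 fits with a library left out (adjusted p up to 0.166).

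Of 6 rows for haem oxygenases and leghaemoglobins 2 were tested. HO1, a haem oxygenase, which opens the haem ring and releases its iron, was at 1904 to 2942 normalized counts under water deficit and 3673 to 4337 in combined stress. It rose by 0.75 on the log2 scale in combined stress against water deficit (limma adjusted p = 0.0242, SE 0.19), and by 0.71 against heat stress (limma adjusted p = 0.0497, SE 0.19), a call lost in 5 of 9 other settings, edgeR among them, and with a library left out in 10 of 12 (adjusted p up to 0.173). The call against water deficit was lost in 2 of 9 and in 3 of 12 (adjusted p up to 0.0868). Of 16 antioxidant enzyme genes, all tested, 2 rose and none fell in combined stress against water deficit, close to the 12.7% of all genes called, with a median log2 change of -0.24 beside -0.04 over all genes. In heat stress against control 1 of 16 rose, where 3.11% of all genes were called, with a median of -0.36 beside -0.01. There 7 of the 16 had an unadjusted p under 0.05, beside 6983 of the 33119 genes tested. DESeq2 called 5 of the 16, beside 3314 of all genes, and edgeR called 1. In combined stress against control 2 rose and 1 fell, where 13.8% of all genes were called.

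SOD1, a superoxide dismutase, was at 740.1, 743.6 and 920.4 normalized counts in control and at 2373, 2580 and 1640 in heat stress. It rose by 1.44 on the log2 scale in heat stress (limma adjusted p = 0.0101, SE 0.23) and by 0.89 in combined stress against water deficit (limma adjusted p = 0.0264, SE 0.23). SODB2 and SODB, more abundant genes of the antioxidant list, had log2 changes of -0.98 and -1.04 in heat stress against control. Neither was called (limma adjusted p = 0.127 and 0.115). For both genes the libraries of the groups did not overlap (exact two-sided permutation test p = 0.1, the smallest it can give). The share of all genes without overlap is not given here. CAT4 and CAT5, also abundant genes of this list, had log2 changes of 0.11, with overlap, and -1.01, without overlap, and were not called. GR, glutathione reductase, rose by 0.80 in combined stress against water deficit (limma adjusted p = 0.0226, SE 0.20). The calls of SOD1 and GR in combined stress against water deficit were lost in 5 and 3 of the 12 fits that each left out a library. That of SOD1 in heat stress against control was lost in 3 alternative fits.

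Clock genes were listed because the hour of harvest is not given. None of the 3 morning clock genes was called in any of the 6 comparisons by limma, edgeR or DESeq2, and 0 had an unadjusted p under 0.05. Of the 5 evening clock genes tested, 1 fell in heat stress and 1 in combined stress, each against control, where 3.11% and 13.8% of all genes were called. In combined stress all 5 had an unadjusted p under 0.05, as did 9873 of the 33119 genes tested, and DESeq2 called 3, beside 6906 of all genes. Of these 5, TOC1 was higher than in control by 1.06 on the log2 scale (limma adjusted p = 0.142), and the others were lower. GIGANTEA, an evening clock gene, was at 9167 to 14634 normalized counts in control and 6794 to 7782 in combined stress, a log2 change of -0.76 (limma adjusted p = 0.0753, SE 0.26). LCL1, a morning gene, was at 1429, 1097 and 6104 normalized counts in heat stress libraries 1 to 3 and at 555.9, 3612 and 3019 in combined stress. The part of these differences in the levels of SFERH-2 was not tested. Among the leaf markers, LHCB1-7, a light-harvesting protein gene, fell by 4.52 and RCA03, a Rubisco activase gene, rose by 4.48 on the log2 scale in combined stress against water deficit (limma adjusted p = 0.00830 and 0.00159), and their part in the ferritin levels was not tested.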

How the data were processed

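Leaf RNA of 12 libraries was analysed from a deposited table in which the signal is, per the file headers and values, a gene count divided by a size factor per library. The submitters' processing notes name cutadapt 1.18, FastQC 0.11.7, STAR 2.4.0.1 and DESeq2 1.20.0, without their roles. Genome build, annotation, counting method and strand are not given in the sources used here, so no positions are printed. Division by the smallest step of each column gave whole reads (100% of positive values within 0.01, largest distance 6.19e-05), and the recovered reads total 26077068 to 46186226 per library. No column was left unused (0 without a sample). RefSeq symbols matched 49583 of 55051 genes (90.1%), for names and gene order only.

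Groups follow the treatment labels. limma 3.58.1 in R 4.3.3 was fitted to log2(normalized count + 1) of the 33119 genes whose mean reached 10, over all 4 groups, with a variance trend, two-sided tests and Benjamini-Hochberg adjustment over all genes, called at an adjusted p under 0.05. The groups compared share libraries, so comparisons with a common group are not independent. Alternatives were edgeR 4.0.16 (quasi-likelihood, TMM) and DESeq2 1.42.0 on the recovered reads, a pseudocount of 10, no filter, 2 other scalings, no variance trend, only the libraries compared, and each library left out. The sums of ferritin reads without SFERH-2 were added after seeing the data. The methods were tested on simulated data.

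Genes named are the SFERH rows, ferritin-named rows by RefSeq synonym (a planned match by protein identity was not made, and no sequence is shown), the 8 most and 4 least correlated with SFERH-2 at a mean of at least 100, and, per list, up to 2 rises and 2 falls called in combined stress against water deficit, otherwise the most abundant member. SFERH-2's RefSeq neighbours, LCL3 and IRT were added, LCL3 after its values were seen. Outside this rule, SODB2, SODB, CAT4, CAT5 and TOC1 were named with their values known, and GMNRAMP3B and GMNRAMP6A were flagged by their values. Lists were formed from symbol prefixes. From the leghaemoglobin list 34 LBD symbols were left out, and the lists for iron regulators and ferredoxins matched 0 rows. The members and lists were chosen with earlier results of these data known.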

Additional observations from a re-analysis of the deposited data

Results flagged for a closer look

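For 3 genes of iron handling, every heat stress library moved one way from the control mean and every combined stress library the opposite way from the water deficit mean. The share of all genes that did so is not given here, so the count says nothing about iron handling as a whole. The difference of the heat responses, with minus without water deficit, was 1.155 for HO1 (SE 0.27, limma adjusted p = 0.376), -0.34 for GMNRAMP3B (limma adjusted p = 0.727) and -1.716 for GMNRAMP6A (limma adjusted p = 0.474), in log2 units. None of the 3 passed limma's test of the difference. HO1 was called in it by DESeq2 (adjusted p = 0.00757) and, with limma, without heat stress library 3 (adjusted p = 0.0323, and 0.0323 to 0.791 over the 12 fits that each left out a library). GMNRAMP6A is a low gene, at 4.18 to 26.1 normalized counts. GMNRAMP3B was at 595.6 normalized counts in water deficit library 3 and at 341.0 to 409.8 in the other 11 libraries.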

How the results depend on the processing

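No paired analysis was possible because the labels give no replicate numbers shared between groups. No alternative turned the direction of a called ferritin change, and no scaling moved the median of all genes by more than 0.1. For SFERH-2 in combined stress against water deficit, 9 alternatives gave -2.07 to -0.26 (adjusted p 0.168 to 0.860) and leaving out each library -2.97 to -1.13 (0.0623 to 0.504), never called. SFERH-3 in combined stress against control gave 0.79 to 0.94 with a library left out, and 0.78 without the 3 libraries high in LCL3 (adjusted p 0.0501; over all 9 alternatives 4.0e-05 to 0.0501). In combined stress against water deficit SFERH-3 passed the threshold with equal totals (0.61), quantile normalization (0.59) and DESeq2 (0.59), and gave 0.49 to 0.65 with a library left out (over the 9, adjusted p 0.0100 to 0.191). SFERH-4 in heat stress against control kept its call in all 9, and with a library left out gave -3.36 to -2.66, lost in 5 of 12. SFERH-4 in combined stress against water deficit was lost without the variance trend (-1.72), with only the libraries compared (-1.72), with edgeR (-1.44) and without the 3 libraries (-0.56). It gave -2.29 to -1.22 with a library left out, lost in 8 of 12 (over the 9, adjusted p 0.0230 to 0.215). With a library left out, H-1 lost its call in heat stress against control in 2 of 12 and in combined stress against control in 2 of 12, and FER2-1 in heat stress in 5 of 12. Of the 9 alternatives, 1 lost H-1 in heat stress and 2 lost FER2-1. With a library left out, the number of genes called was 139 to 4742 in heat stress against control (1031 with all), 382 to 6840 in combined stress against heat stress (1724), 1233 to 6460 in combined stress against water deficit (4221), 1994 to 6614 in combined stress against control (4573) and 30 to 882 under water deficit (423). In the interaction it was 0 with all, 1583 without heat stress library 3 and 1010 without the 3. The cause was not tested. For SFERH-2 itself, the 95% interval in combined stress against water deficit spans -4.24 to 0.11.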
